A study of Homo sapiens with 4 samples.

Results

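The imprinted domain at 15q11 was examined in 4 intervals of chromosome 15 in hg19 (GRCh37) coordinates: around MKRN3 (23800001 to 23815000), MAGEL2 (23885001 to 23900000), NDN (23925001 to 23937000) and the overlapping genes SNRPN and SNURF (25065001 to 25225000). The last interval contains the control region of the domain, at 25200001 to 25202000. The members were the CpG cytosines of these intervals covered by 5 reads or more in each of the 4 libraries. They numbered 93 of 907719 such cytosines on the autosomes and chromosome X: 6 around MKRN3, 0 around MAGEL2, 10 around NDN and 77 in the SNRPN/SNURF interval, of which 18 lay in the control region. Whether a cytosine lies in an exon or an intron was not assigned, because an annotation of the files' build was not used here.

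Genomic DNA of the human embryonic stem cell line H9 was measured by bisulfite sequencing after methylation capture. The 4 groups held 1 library each. Primed cells, wild type (WT) or B3GALT5-/- knockout (KO), were grown in basal medium. Naive WT cells were obtained in 5iLAF and naive KO cells in 2iLAF medium. B3GALT5 encodes a galactosyltransferase of glycosphingolipid synthesis, and 5iLAF is a mix of kinase inhibitors with LIF, activin A and FGF2 that holds human cells in a naive, preimplantation-like state. The labels do not say whether the KO cells are a single clone, and in the naive state genotype and medium differ together and cannot be told apart. With 1 library per group no difference below has a replicate check.

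In an imprinted domain the parental copies of the same sequence carry different methylation and only the copy from a given parent is expressed. At 15q11 the control region spans the promoter of SNURF-SNRPN; in somatic cells it is methylated on the maternal copy and free of methylation on the paternal copy, from which SNRPN, SNURF, NDN, MAGEL2 and MKRN3 are expressed. Loss of this paternal expression underlies Prader-Willi syndrome. Reads of both copies fall into the same level here, so a region that keeps its imprint stands at an intermediate level, and loss from the maternal copy or gain on the paternal copy moves it down or up.

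The promoter windows at the control region are shown because they hold 7 of the region's 18 measured cytosines and the SNURF-SNRPN start, as RefSeq gives them in build GRCh38.p14. Because the methylation files are in hg19, each window of 300 bases was placed by the spacing of its CpGs alone. For the start shared by SNRPN and SNURF, all 18 CpGs of the window coincided with 18 listed CpGs at a single placement out of 159701, and the next best placement matched 3. The start of SNRPN further downstream was placed by 4 listed CpGs, against 2 at the next best placement, and the 5 windows of the domain that could be placed shared the same offset. The upstream 250 bases of the shared start (chr15:24954737-24954986, plus strand) hold 12 CpGs, in capitals, each of which was listed in at least 1 library but none with 5 reads in all 4. The upstream 250 bases of the downstream SNRPN start (chr15:24956050-24956299, plus strand) hold 6 CpGs, and capitals mark the 4 that were measured in all 4 libraries.
SNRPN/SNURF shared start: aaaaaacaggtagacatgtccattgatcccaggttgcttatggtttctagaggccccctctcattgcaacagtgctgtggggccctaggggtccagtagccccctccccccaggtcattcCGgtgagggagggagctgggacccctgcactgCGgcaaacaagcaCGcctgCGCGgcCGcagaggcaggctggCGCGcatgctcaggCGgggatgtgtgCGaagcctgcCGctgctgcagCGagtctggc
SNRPN downstream start: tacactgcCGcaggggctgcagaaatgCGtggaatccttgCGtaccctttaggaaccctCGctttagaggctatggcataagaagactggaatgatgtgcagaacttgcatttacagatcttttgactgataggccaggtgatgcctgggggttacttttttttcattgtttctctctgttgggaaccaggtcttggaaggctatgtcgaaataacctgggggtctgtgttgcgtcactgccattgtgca

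The depth at the members was low. Their median coverage was 12 reads in WT primed, 14 in KO primed, 10 in WT naive and 20 in KO naive, close to the medians of all tested cytosines (13, 14, 13 and 21), and 89 of the 93 lay on the minus strand. The tables hold no cytosine without a methylated read, so no level can be below 1 methylated read (20% at 5 reads, less where coverage is deeper), and a missing cytosine had either no coverage or no methylated read. Neighbouring cytosines are read from the same DNA fragments and are not independent, and intervals given for reads cover counting error only. In simulated data at the depths of WT naive against WT primed, 20000 cytosines were lowered by 50 percentage points and 20000 by 30, among 907719. Of the decreases of 50 points, the test used here called 13.4% where the shallower library had 10 to 19 reads, and 1.99% at 5 to 9 reads. In the measured libraries 16.2% of all cytosines were called lower, and the adjustment for multiple testing is less strict where more cytosines change. These shares are therefore not the power of the test in the measured data.

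The control region stood at an intermediate to low level in all 4 libraries. Its mean level was 42.6% ± 23.6 in WT primed, 32.5% ± 10.6 in KO primed, 30.5% ± 12.4 in WT naive and 27.1% ± 9.08 in KO naive cells (SD over 18 cytosines). All autosomal cytosines together stood at 80.7%, 81.7%, 58.1% and 59.3%, so the control region was below the genome in every library. Levels ranged from 5% to 83.3% in WT primed and from 12.5% to 45.8% in KO primed cells. In the naive libraries they ranged from 12.5% to 45.5% in WT and from 6.67% to 40.6% in KO cells. Levels of 50% or above were found at 8 of 18 cytosines in WT primed cells and at 0 of 18 in each of the other libraries.

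**Figure D1:**
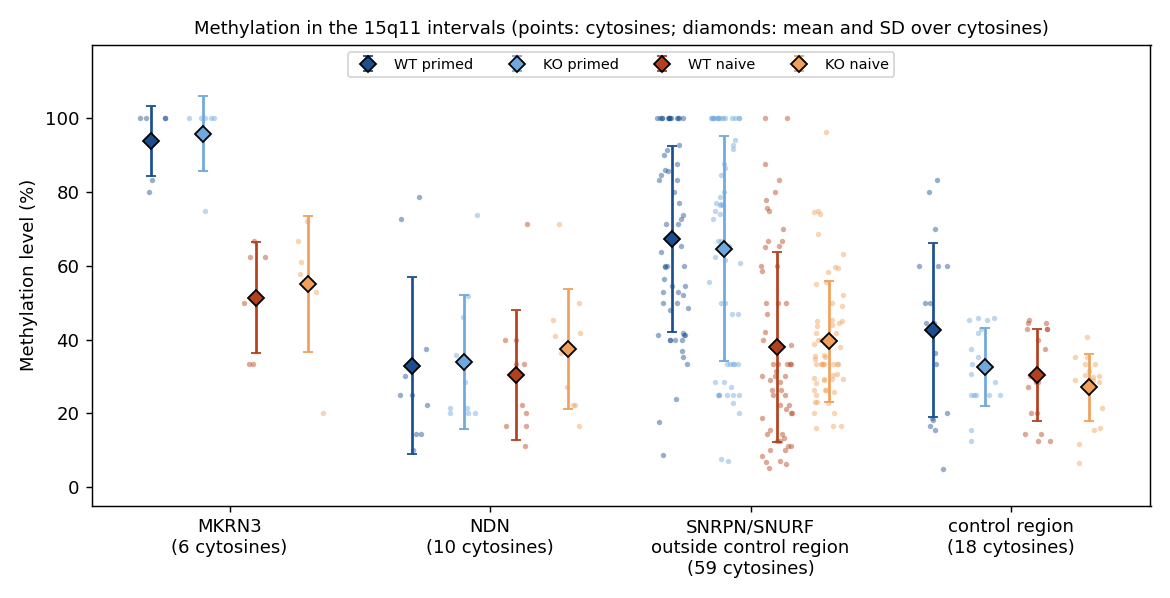
Methylation level in percent (vertical axis) for each interval in the 4 libraries; small points are single cytosines, diamonds the mean and bars the SD over cytosines. MKRN3 and the SNRPN/SNURF interval outside the control region are lower in both naive libraries, while NDN and the control region lie between 27.1% and 42.6% in all 4.

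The mean level of the control region differed by -12.1 points between naive and primed WT cells and by -5.47 points in KO cells, and 0 of its 18 cytosines passed the test in either. The test was a two-sided Fisher's exact test on the reads of each cytosine, with Benjamini-Hochberg adjustment over all 907719 cytosines, and a call also needed at least 25 points of difference beside an adjusted p below 0.05. It compares 2 libraries, not conditions. Between the strands of a CpG, levels varied 2.61 to 4.02 times as much as read counting predicts. The test counts reads alone, so its p-values are likely too small. With reads scaled down by that ratio, 0 of the 93 members were called in either genotype, beside 0.132% (WT) and 0.17% (KO) of all cytosines called lower. In WT cells 12 of 18 cytosines were lower, 2 of them at an unadjusted p under 0.05, and the smallest adjusted p by Fisher's test was 0.064. In KO cells 10 of 18 were lower, 0 of them at an unadjusted p under 0.05, and the smallest adjusted p by Fisher's test was 0.284. Across all cytosines tested, 16.2% were called lower in WT naive and 18.2% in KO naive cells, and, whatever the size, 76.8% were lower and 17.3% higher in WT, and 84% lower and 13.4% higher in KO cells.

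With reads pooled over the control region, the differences were -8.93 points in WT (95% Newcombe interval -18.5 to 1.15) and -4.73 points in KO cells (-11.6 to 1.998). Both intervals include no difference, and they are too narrow because cytosines share reads. Autosomal 1 kb tiles with at least 5 cytosines, 49397 in all, had a median difference of -20.6 in WT and -20.3 points in KO cells. Of these tiles, 29.2% decreased less than the control region in WT cells and 11.2% in KO cells. Tiles within 5 points of the control region's own primed level were also compared. Their medians were -9.51 points in WT (1641 tiles) and -7.77 points in KO cells (1076 tiles). In WT cells that level averages 2 clusters at 24.4% and 60.7%, described below, and is near neither. Tiles near the second cluster's level had a median of -17 against its -33.6 points, and 87.4% of 3001 decreased less. For the first cluster the median was 0.397 against 9.48 points, and 26.9% of 890 tiles stood further toward an increase. Over both genotypes the control region averaged 37.5% ± 7.09 for primed and 28.8% ± 2.41 for naive libraries (SD, n = 2 libraries each), a difference of -8.78 points, and the two-sided exact permutation test gave p = 0.333, the smallest p that 2 against 2 libraries can give.

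The control region was measured at 2 separate clusters of 9 cytosines, 708 bp apart, and these did not move alike. The first cluster (25200153 to 25200311) lies downstream of the SNURF-SNRPN start, and its first 3 cytosines are the last 3 CpGs of the shared window. Its mean level was 24.4% ± 13.9 in WT primed, 31.3% ± 8.45 in KO primed, 33.8% ± 13.5 in WT naive and 26.2% ± 8.99 in KO naive cells, so the largest difference between libraries was the 9.48 points by which WT naive exceeded WT primed. The second cluster (25201019 to 25201257) holds the 4 capital CpGs of the downstream SNRPN start. Its mean level was 60.7% ± 15.6 in WT primed, 33.8% ± 12.8 in KO primed, 27.1% ± 10.9 in WT naive and 27.9% ± 9.63 in KO naive cells. Here WT primed stood above the other 3 libraries, while at the first cluster it had the lowest mean.

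**Figure D2:**
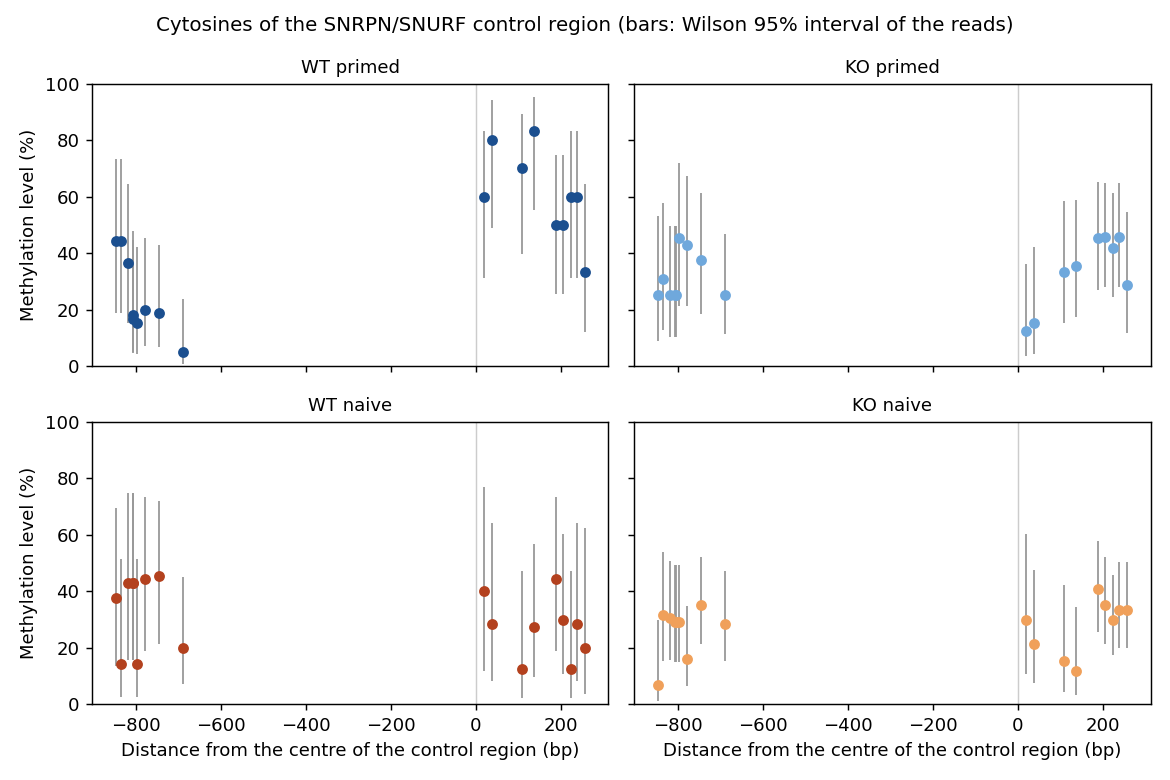
Methylation level in percent of each cytosine of the control region against its distance in bp from the centre of the region, 1 panel per library; bars are Wilson 95% intervals of its reads. The cytosines right of the centre reach 83.3% in WT primed and at most 45.8% in the other libraries.

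Within WT primed cells the second cluster was 36.4 points above the first. The same difference was 2.48 points in KO primed, -6.74 points in WT naive and 1.65 points in KO naive cells. Naive cells were lower than primed at 9 of 9 cytosines of the second cluster in WT (mean difference -33.6 points) and at 6 of 9 in KO cells (-5.89 points). At its deepest cytosine, 25201206, 6 of 12 reads were methylated in WT primed (50%, Wilson 95% interval 25.4 to 74.6%), 11 of 24 in KO primed (45.8%, 27.9 to 64.9%), 3 of 10 in WT naive (30%, 10.8 to 60.3%) and 12 of 34 in KO naive cells (35.3%, 21.5 to 52.1%). The intervals of all 4 libraries overlap at this cytosine. With reads pooled over the second cluster, WT naive minus WT primed was -33.9 points (95% Newcombe interval -46.8 to -18.7), which excludes no difference. For the KO pair it was -5.6 points (-15 to 3.73). At the first cluster the values were 11.8 (-0.824 to 24.6) in WT and -3.28 points (-13.2 to 6.26) in KO cells. These intervals are too narrow because cytosines share reads, and the clusters were chosen after their values were seen. The largest change in WT cells lay at 25201109, with 7 of 10 reads methylated in the primed and 1 of 8 in the naive library (unadjusted p = 0.0248, adjusted p = 0.104, Fisher's exact test). The largest change of the control region in KO cells lay in the first cluster, at 25200222. It went from 6 of 14 to 4 of 25 reads (adjusted p = 0.284, Fisher's exact test).

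The number of listed cytosines in the control region also differed between libraries. At any coverage, 60 cytosines were listed in WT primed, 36 in KO primed, 26 in WT naive and 55 in KO naive cells, out of 64 listed in at least 1. The ratio of WT naive to WT primed was 0.433, against a median of 0.933 over 18391 autosomal windows of the same length with at least 20 cytosines listed in WT primed; 4.78% of these windows had a ratio as low. For KO primed against WT primed the ratio was 0.6, at or below which 2.96% of windows lay. In KO cells the naive library listed more, 1.53 times as many as the primed library. Median reads per listed cytosine in the region were 8.5 in WT primed, 16 in KO primed, 7 in WT naive and 15 in KO naive cells, and how far coverage sets the counts was not tested.

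Within the SNURF-SNRPN window shown above, WT primed listed all 18 CpGs, KO primed 3, WT naive 8 and KO naive 13. The listed sets are nested but not equal. The CpGs of KO primed lie among those of WT naive, these among those of KO naive, and all among those of WT primed. They rest on 2 to 11 reads in WT primed, 12 to 16 in KO primed, 3 to 8 in WT naive and 11 to 23 in KO naive cells. Since a listed site has at least 1 methylated read, the level of a shallow site is raised by the listing, and levels of the window are not compared. Of the 12 capital CpGs upstream of the start, KO primed listed 0 and WT naive 2, against 12 in WT primed and 7 in KO naive cells. With unlisted sites filled in at 0 from the coverage of neighbours within 25 bp, 25 cytosines of the control region had 5 reads or more, with mean levels of 45.8% in WT primed, 26.3% in KO primed, 28.1% in WT naive and 23.7% in KO naive cells. The difference of naive to primed was then -17.7 in WT and -2.65 points in KO cells.

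Outside the control region, the SNRPN/SNURF interval was lower in the naive than in the primed library in both genotypes. SNRPN encodes SmN, a core protein of spliceosomal particles, SNURF a small protein from the same transcript, and the interval runs from their far upstream starts to the body of the gene. Over 59 cytosines the mean level was 67.2% ± 25.3 in WT primed, 64.7% ± 30.4 in KO primed, 38% ± 25.8 in WT naive and 39.5% ± 16.5 in KO naive cells (SD over cytosines). The difference was -29.3 points in WT cells, where 46 of 59 cytosines were lower, and -25.2 points in KO cells, where 43 of 59 were lower. By Fisher's test 14 cytosines were called lower and 1 higher in WT cells, beside 16.2% and 0.442% of all cytosines. In KO cells 16 were called lower and 0 higher, beside 18.2% and 0.242%; the 20 at an unadjusted p under 0.05 were all lower. Over the 6 cytosines with at least 20 reads, the difference of the SNRPN/SNURF interval was -2.64 points in WT and -9.75 points in KO, against -25.3 and -20.6 points over all 77. All 6 lay between 25144017 and 25154906, none of them in the control region or among the 16 cytosines described next, so depth and location changed together.

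Most of these calls lay in a cluster of 16 cytosines at -77.5 kb from the control region's centre (25123288 to 25123683). It was almost fully methylated in primed cells, at 94.9% ± 11 in WT and 93.9% ± 11 in KO cells, and stood at 23.2% ± 18.6 in WT naive and 35.6% ± 11.2 in KO naive cells. All 16 cytosines were lower in both genotypes. Fisher's test called 10 of them in WT and 12 in KO cells, beside 16.2% and 18.2% of all cytosines called lower. At the deepest, 25123365, the methylated reads were 25 of 25 in WT primed, 26 of 28 in KO primed, 4 of 14 in WT naive and 6 of 26 in KO naive cells. The mean differences were -71.7 in WT and -58.3 points in KO cells, and 99.4% and 97.6% of autosomal tiles decreased less. The largest single changes of the interval lay here: at 25123658 in WT cells, from 8 of 8 to 1 of 12 reads (adjusted p = 0.00163, Fisher's exact test), and at 25123382 in KO cells, from 27 of 27 to 4 of 25 reads (adjusted p = 1.54e-08, Fisher's exact test).

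**Figure D3:**
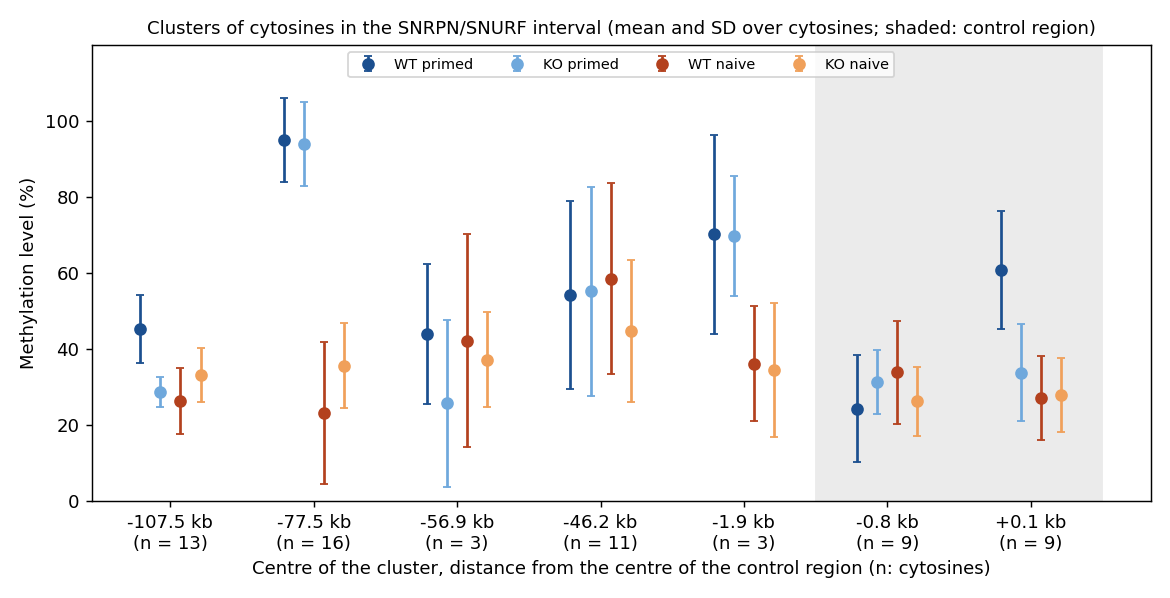
Mean methylation level in percent, with the SD over cytosines, of the 7 clusters of the SNRPN/SNURF interval in the 4 libraries, ordered by distance from the centre of the control region in kb. The cluster at -77.5 kb falls from 94.9% and 93.9% to 23.2% and 35.6%, while 4 of the others stay between 24.4% and 58.5% in every library.

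The other clusters outside the control region moved less or differed between the genotypes. At -1.9 kb (25199029 to 25199165, 3 cytosines) the level was 70.1% ± 26.1 in WT primed, 69.6% ± 15.8 in KO primed, 36.2% ± 15.1 in WT naive and 34.4% ± 17.7 in KO naive cells, and 1 cytosine was called lower in WT cells. At -107.5 kb (25093457 to 25093606, 13 cytosines) it was 45.2% ± 8.97 in WT primed, 28.8% ± 3.97 in KO primed, 26.4% ± 8.64 in WT naive and 33.1% ± 7.06 in KO naive cells. All 13 cytosines were lower in WT naive than in WT primed cells and 4 of 13 in KO cells, with 0 calls by Fisher's test in either and 0 at an unadjusted p under 0.05. Over all cytosines 16.2% (WT) and 18.2% (KO) were called lower. WT primed was thus the highest library at -107.5 kb, as at the second cluster of the control region. It was also the highest at -77.5 kb (94.9% against 93.9% in KO primed) and at -1.9 kb (70.1% against 69.6% in KO primed). The same held at -56.9 kb (44% against 42.2% in WT naive), but not at -46.2 kb or at the first cluster of the control region.

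The cluster at -46.2 kb (25154694 to 25154993, 11 cytosines) had median coverages of 15 to 55 reads. Its level was 54.2% ± 24.8 in WT primed, 55.1% ± 27.5 in KO primed, 58.5% ± 25.1 in WT naive and 44.8% ± 18.7 in KO naive cells. The difference was 4.33 points in WT cells, and 5.36% of tiles stood further toward an increase. The single increase called in WT cells, at the plus-strand cytosine 25154809, had 2 of 23 methylated reads in WT primed and 7 of 10 in WT naive cells (adjusted p = 0.00962, Fisher's exact test). On the minus strand of the same CpG the counts were 17 of 35 and 7 of 24, and with the reads of both strands summed 0 increases were called in all intervals. At -56.9 kb (25144017 to 25144261, 3 cytosines) the mean level was 44% ± 18.5 in WT primed, 25.7% ± 22 in KO primed, 42.2% ± 28 in WT naive and 37.2% ± 12.4 in KO naive cells.

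Of the 16 members outside any cluster, 13 belong to the SNRPN/SNURF interval. Fisher's test called 3 of the 16 lower in WT and 4 in KO cells, beside 16.2% and 18.2% of all cytosines. The cytosine 25122477 was called in both, with 12 of 23 and 24 of 33 methylated reads in WT and KO primed and 1 of 16 and 7 of 42 in WT and KO naive cells.

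MKRN3 encodes a makorin zinc finger protein and is known for its part in the timing of puberty. The measured cytosines of its interval were less methylated in both naive libraries. They do not cover the MKRN3 promoter window, where 0 of 15 CpGs had 5 reads in all 4 libraries. The 6 cytosines had a mean level of 93.9% ± 9.53 in WT primed and 95.8% ± 10.2 in KO primed cells. In the naive libraries it was 51.4% ± 15.1 in WT and 55.1% ± 18.5 in KO cells. All 6 were lower in the naive library in both genotypes, and the naive and primed levels of the 5 cytosines that lie within 33 bp of each other did not overlap. Those 5 (23810347 to 23810379) stood at 83.3 to 100% in WT primed, at 100% in KO primed, at 33.3 to 66.7% in WT naive and at 52.9 to 72.2% in KO naive cells. Coverage there was 6 to 9 reads in WT primed and 6 to 8 in WT naive cells.

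The difference of the MKRN3 interval was -42.5 in WT and -40.7 points in KO cells, and 87.3% and 88.9% of autosomal tiles decreased less. With the reads of both strands summed (10 CpGs) it was -30.5 in WT and -35 points in KO cells. By Fisher's test 0 of the 6 cytosines were called in WT cells (2 at an unadjusted p under 0.05, both lower) and 1 in KO cells (3 unadjusted). Over all cytosines 16.2% were called lower in WT and 18.2% in KO cells, and 6 cytosines are too few to set against that share. The cytosine with the largest change in WT cells, 23810373, had 8 of 8 methylated reads in the primed and 2 of 6 in the naive library (adjusted p = 0.0734, Fisher's exact test). The KO call was the same cytosine, from 11 of 11 to 9 of 17 reads, and its adjusted p of 0.049998 by Fisher's test lay at the threshold. The largest change in KO cells was at 23814870, from 6 of 8 to 1 of 5 reads (adjusted p = 0.251, Fisher's exact test).

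MAGEL2, of the MAGE family and a cofactor of ubiquitin ligases, could not be assessed. Its interval listed 3 cytosines in all. At 23894199 the methylated reads were 2 of 2 in WT primed and 2 of 5 in KO naive cells, at 23894225 they were 1 of 2 in WT primed cells, and at 23887711 they were 1 of 3 in KO naive cells. KO primed and WT naive cells listed none of them.

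NDN, which encodes the growth suppressor necdin, had a mean level of 30.5% to 37.4% in all 4 libraries. Over 10 cytosines the mean level was 33% ± 23.9 in WT primed, 33.9% ± 18.2 in KO primed, 30.5% ± 17.7 in WT naive and 37.4% ± 16.4 in KO naive cells. Naive minus primed was -2.48 in WT and 3.51 points in KO cells, with pooled-read differences of -2.93 (95% Newcombe interval -16.2 to 10.6) and 4.33 points (-7.07 to 15.8). The size of the difference depended on the cytosines used: with at least 10 reads (3 cytosines) it was -12.5 points in WT and -5.97 points in KO, and with unlisted sites filled in at 0 (13 cytosines) -10.7 points in WT and 8.47 points in KO. By Fisher's test 0 of 10 cytosines were called in either genotype, with 0 at an unadjusted p under 0.05 in WT and 1, lower, in KO cells. Over all cytosines 16.2% were called lower and 0.442% higher in WT, and 18.2% lower and 0.242% higher in KO cells.

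The cytosines of NDN did not share a level. A cluster of 8 (23931941 to 23932081) was at 26.7% ± 19.8 in WT primed, 26.7% ± 9.66 in KO primed, 24.2% ± 10.2 in WT naive and 32.7% ± 12.3 in KO naive cells. The cytosine 23931012, outside that cluster, had the largest change of the interval in both genotypes: 11 of 14 reads were methylated in WT primed, 17 of 23 in KO primed, 6 of 15 in WT naive and 9 of 22 in KO naive cells (adjusted p = 0.189 in WT and 0.124 in KO, Fisher's exact test). Its neighbour 23930953 went the other way, from 6 of 16 and 14 of 27 in WT and KO primed to 10 of 14 and 15 of 21 in WT and KO naive cells. In the WT naive library 26 cytosines of the NDN interval were listed, against 63 in WT primed, 58 in KO primed and 62 in KO naive cells.

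**Figure D4:**
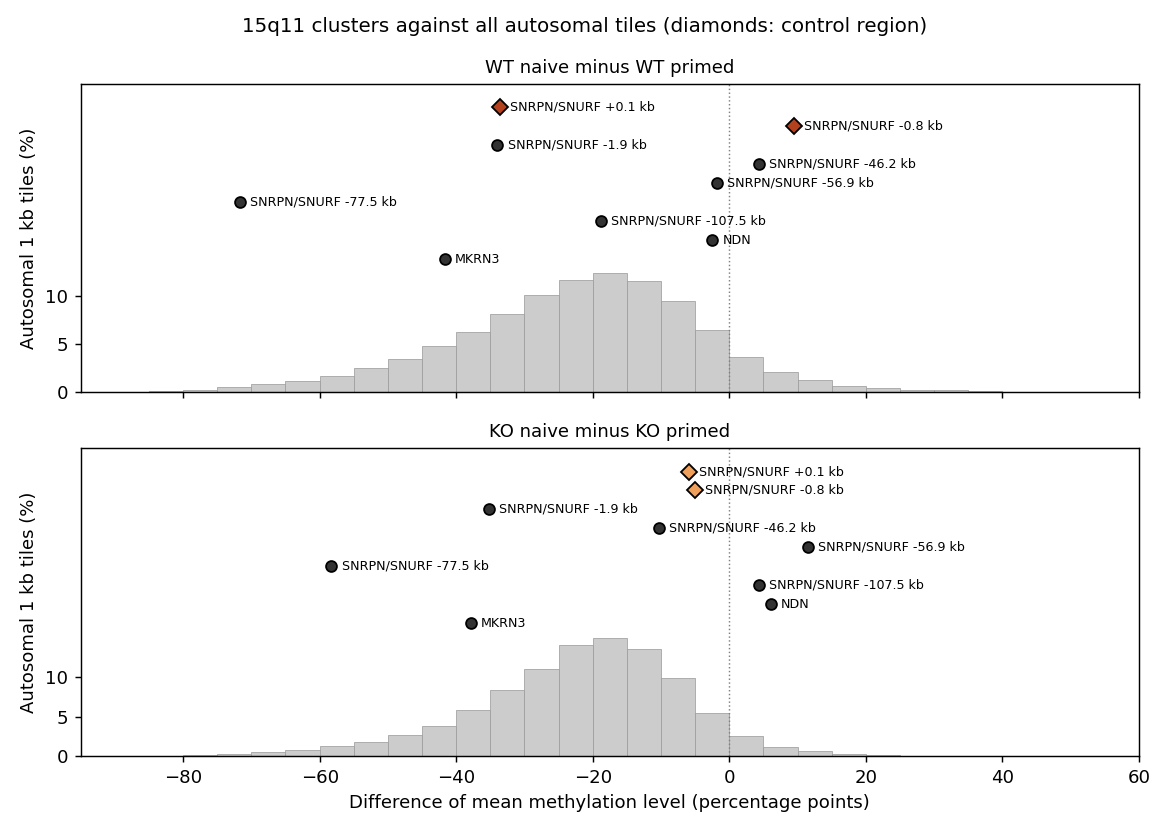
Share of autosomal 1 kb tiles in percent (grey bars, vertical axis) by their naive-minus-primed difference in percentage points, for WT and KO cells. Symbols, placed at heights without meaning, give the 9 clusters of the 15q11 intervals; the MKRN3 and -77.5 kb clusters lie left of the tile medians of -20.6 and -20.3 points, NDN lies right of them, and the control region (diamonds) is split in WT cells.

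KO primed minus WT primed was -10.02 points at the control region, where 12 of 18 cytosines were lower in KO cells, beside 39% lower and 41.4% higher over all cytosines. With reads pooled the difference was -5.67 points (95% Newcombe interval -14.1 to 2.72), which includes no difference, and with at least 10 reads it was -3.36 points over 4 cytosines. The clusters differed in sign: the second was lower at 9 of 9 cytosines (mean difference -26.98 points), while the first was higher by 6.93 points. With reads pooled the second differed by -25 points (95% Newcombe interval -36.4 to -12.4), which excludes no difference. The first differed by 9.05 points (-1.95 to 19.6), which includes it. Both intervals are too narrow because cytosines share reads. As a 1 kb tile, 25201001 to 25202000 was called lower in KO primed cells by a rule of size (at least 25 points, with at least 80% of cytosines moving that way), 1 of 7 tiles of the intervals beside 0.702% of all autosomal tiles lower and 1.45% higher. Fisher's test called 0 of the 93 cytosines in either direction (4 lower and 0 higher at an unadjusted p under 0.05), beside 0.103% lower and 0.216% higher over all cytosines. The cytosines at the start of the second cluster differed most: at 25201038, 8 of 10 reads were methylated in WT primed and 2 of 13 in KO primed cells, and at 25201136 10 of 12 and 6 of 17.

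At the other intervals KO minus WT primed was 1.94 points at MKRN3, 0.947 points at NDN and -2.57 points in the SNRPN/SNURF interval outside the control region, where the cluster at -107.5 kb was lower in KO cells at 13 of 13 cytosines (mean difference -16.5 points) and the cluster at -56.9 kb at 2 of 3 (-18.3 points). Over all autosomal cytosines KO primed was higher by 0.999 points. The KO primed library listed 36 cytosines of the control region against 60 in WT primed, and the part of unlisted sites in the difference of the measured ones was not tested; with sites filled in at 0, the difference was -19.4 points.

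In the naive state the KO library was in 2iLAF and the WT library in 5iLAF. Their mean levels differed by at most 6.94 points in the intervals with measured cytosines. Pooled-read differences were 8.84 points at MKRN3 (95% Newcombe interval -8.58 to 26) and 7.46 points at NDN (-5.81 to 20.1), both wide. In the SNRPN/SNURF interval outside the control region it was 4.25 points (0.267 to 8.18), which excludes no difference. With equal weight per cytosine, KO minus WT was 3.75 points at MKRN3, 6.94 points at NDN and 1.53 points in the SNRPN/SNURF interval outside the control region. In the control region it was -3.41 points, with a pooled-read difference of -1.48 points (95% Newcombe interval -10.3 to 6.66). Fisher's test called 0 of 93 cytosines (5 lower and 4 higher at an unadjusted p under 0.05), beside 0.218% lower and 0.391% higher over all. The cluster at -77.5 kb was higher in KO naive cells by 12.4 points, at 11 of 16 cytosines. The cluster at -46.2 kb differed by -13.7 points, lower at 8 of 11. Over all cytosines 47.7% were lower and 50% higher. With reads pooled these clusters differed by 13.8 (5.3 to 21.5) and -8.65 points (-15.8 to -1.36). Both intervals exclude no difference but are too narrow because cytosines share reads. The number of listed cytosines differed as well: KO naive listed 2.12 times as many as WT naive in the control region and 2.38 times as many around NDN, against 1.15 times over all autosomes.

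As tiles, 3 of the 7 tiles of the intervals were called lower in WT naive and 2 in KO naive cells by the rule of size, beside 36.9% and 36.2% of autosomal tiles; 0 were called higher, beside 0.504% and 0.162%. Between the naive libraries 0 of the 7 were called in either direction, beside 2.13% lower and 3.35% higher. The MKRN3 tile and the tile of the -77.5 kb cluster were called in both genotypes, and the second tile of the control region was called in WT and not in KO cells; the difference between genotypes was not tested. The rest of chromosome 15 between the first and the last interval gave 321 cytosines, with mean levels of 56% in WT primed, 57.3% in KO primed, 35.1% in WT naive and 40.1% in KO naive cells. The difference of that surrounding sequence, -20.9 in WT and -17.2 points in KO cells, lay between those of MKRN3 on the one side and of the control region and NDN on the other. These regions started from unlike primed levels. Among tiles within 5 points of NDN's primed level the medians were -5.12 in WT and -8.26 points in KO cells, and 42.1% and 14.8% decreased less than NDN. Among tiles that near to MKRN3's primed level the medians were -24.6 and -23.4 points, and 82.3% and 85.7% decreased less than MKRN3.

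The tiles with levels nearest to those of the control region were named by a fixed rule. Of 16061 other autosomal tiles with at least 10 cytosines, 12 (0.0747%) lay within 5 points of it in each of the 4 libraries. The nearest, by Euclidean distance over the 4 mean levels, was on chromosome 5, 126149001 to 126150000, with 42% in WT primed, 32.6% in KO primed, 29.4% in WT naive and 31.5% in KO naive cells. The next were on chromosome 4, 166397001 to 166398000, and chromosome 1, 112194001 to 112195000, at distances of 5.36 and 5.47 points against 4.57 for the first. The likeness rests on 4 values per tile, how many tiles lie that near to any other tile was not computed, and the 42.6% of the control region in WT primed averages clusters at 24.4% and 60.7%.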

How the data were processed

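The authors deposited 1 table per library with raw read counts for each CpG cytosine and strand (total, context and methylated coverage) and the methylation level as a fraction, per the file headers. Per the labels' protocols, libraries came from a methylation capture kit, with a conversion of 99% from spiked-in phage DNA. Per the submitters' processing notes the genome build was hg19 (GRCh37). The sources used here give neither aligner nor caller, and duplicate handling is not stated there.

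Strands were kept apart and chromosome Y was left out. A level is methylated over context coverage in percent, averaged with equal weight per cytosine. Clusters are runs of at least 3 members with gaps of at most 200 bp. Fisher's test was checked on simulated data with 20000 cytosines lowered by 50 points and 20000 by 30 points among 907719. Intervals around shares are Wilson's. The rule named each interval, its cytosine of largest naive-minus-primed difference per genotype, the extremes of the control region and the 3 tiles most like it; other cytosines, the clusters and the filled-in windows were chosen after their values were seen. Members, lists and tests were chosen with earlier results of these data known. The alternatives raised the minimum to 10 or 20 reads, weighted levels by reads, used the cytosines of each library alone, or took summed strands, filled-in sites, 5 drawn reads, reads divided by the variance ratio between strands (2.61 to 4.02), a difference of 50 points and a limit of 100 reads. Python 3.11.15 with numpy 2.4.6, pandas 2.3.3 and scipy 1.17.1 was used. B3GALT5 itself was not analysed here, so the KO labels were not checked.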

Additional observations from a re-analysis of the deposited data

Results flagged for a closer look

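In 6 places naive minus primed had opposite signs in the WT and the KO pair of libraries; none of these differences between genotypes was tested. At NDN it was -2.48 points for WT and 3.51 points for KO, and in its cluster from 23931941 it was -2.52 and 6.07 points. In the SNRPN/SNURF interval the cluster at -107.5 kb differed by -18.8 points (WT) and 4.37 points (KO). The cluster at -56.9 kb differed by -1.82 and 11.5 points, and the cluster at -46.2 kb by 4.33 and -10.3 points. With reads pooled in place of equal weights, these became 1.79 and 1.53 points at -56.9 kb and -0.0533 and -11.6 points at -46.2 kb, so neither pair then had opposite signs. The first cluster of the control region differed by 9.48 points (WT) and -5.06 points (KO). The naive medium also differed between the pairs.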

How the results depend on the processing

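Of 20 alternatives for the control region differences 18 kept direction and stayed within counting error, as did 45 of 60 for the other intervals. At the control region that error, from the Newcombe interval, was 9.83 points (WT) and 6.78 points (KO) for naive minus primed. For KO minus WT it was 8.41 points (primed) and 8.47 points (naive). A difference there could lose most or all of its size and still be counted, so the 18 do not show stability. For example, WT naive minus WT primed was -5.28 points over own cytosines in place of -12.1. For the counts of calls, 7 of 28 moved by over 1.5 times. Some alternatives could not differ: all cytosines listed in the control region lie on the minus strand, so summing strands changed nothing there. Nor did summed strands change NDN, or filled-in sites MKRN3, where 0 were added. The counts for KO against WT cells were 0 in every setting, so all 7 that moved were naive against primed. Naive minus primed at SNRPN/SNURF moved to -2.64 (WT) and -9.75 (KO) points with at least 20 reads, to -34.1 (WT) with sites filled in and to -24.4 (KO) over own cytosines. The cytosines with at least 20 reads all lie in the clusters at -56.9 and -46.2 kb, and none in the cluster at -77.5 kb. By Fisher's test, naive minus primed gave 15 calls in WT and 17 in KO cells. With at least 20 reads they became 0 and 0 (6 cytosines left, with 0 and 0 below an unadjusted p of 0.05). Over all cytosines at that depth 32.7% (WT) and 30.3% (KO) were called lower. With 5 reads drawn the calls became 0 and 0 (10 lower and 1 higher in WT, 8 lower in KO, unadjusted). That setting called 0% of all cytosines, so it could not give calls here. With reads scaled by the strand ratio they became 0 and 0 (4 and 6 lower, unadjusted), beside 0.132% and 0.17% of all cytosines called lower. With at least 10 reads KO had 6 calls among 31 cytosines, beside 27.4% of all called lower. At the control region, KO naive minus KO primed was 4.31 points over each library's own cytosines in place of -5.47, and KO minus WT primed was -19.4 points with sites filled in. Its clusters alone, chosen after seeing the data, gave 9.48 and -33.6 points for WT naive minus WT primed, 6.93 and -26.98 points for KO minus WT primed, and 0.781 points (second cluster) for KO minus WT naive. Reversed at the other intervals were KO minus WT primed at MKRN3 (-4.14 points over own cytosines, -3.07 with strands summed), at NDN (-5.63 with at least 10 reads, -9.34 filled in) and at SNRPN/SNURF (2.17 with at least 20 reads). KO minus WT naive became -7.56 points at MKRN3 with strands summed and -0.0676, -4.94 and -0.649 points at SNRPN/SNURF with at least 10 reads, at least 20 reads and own cytosines. KO naive minus KO primed at NDN became -5.97 and -8.18 points with at least 10 reads and own cytosines. The causes were not tested. MAGEL2 gave no value under any setting, MKRN3 none at 10 reads or more, and NDN and the control region none at 20. The labels carry no replicate numbers; paired within genotype, a test added after seeing the data, the control region differed by -8.78 points between the states, with an exact sign-flip p of 0.5, the smallest that 2 pairs can give.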

Other observations

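Outside the measured cytosines, the window of a far upstream start of SNRPN (RefSeq, GRCh38.p14, chr15:24856321-24856620) had its 7 CpGs listed in the primed libraries and in neither naive library. All 7 were listed in WT primed, with 11 of 39 reads methylated (28.2%), and 6 in KO primed cells, with 7 of 41 (17.1%). The window was placed by all 7 CpGs, against 2 at the next best placement. A site without a row has either no coverage or no methylated read, so no level can be given for the naive libraries.

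The NDN promoter window (chr15:23687256-23687555, minus strand), rich in CpGs with 35 against a median of 14 over 35116 windows, had 14 CpGs listed. Of these, 13 cytosines were listed in WT primed, 2 in KO primed, 1 in WT naive and 10 in KO naive cells. In WT primed they had 1 or 2 reads each, too few for a level, since a listed site with 1 read is methylated by construction.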
